A study of Mus musculus with 36 samples.

Results

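The response of mouse embryonic stem cells (mESCs) to PD03 on stiff hydrogels without LIF was measured by RNA sequencing in 6 of the 36 libraries of the study, 3 from serum and 3 from serum + PD03, taken as the table's columns headed with these media on stiff gels at 48 h. PD03 (PD0325901) inhibits MEK, the kinase that activates ERK, and LIF is the cytokine that sustains self-renewal through STAT3. Both groups carry the genotype label 129m wt, were plated on stiff StemBond hydrogels, polyacrylamide gels to which fibronectin is bound covalently, and were kept in medium with serum and without added LIF for 48 h before collection. The 2 groups differed in their labels by PD03 alone, and all 6 libraries came from the same sequencing pool. The libraries are samples of 1 cell type in culture, and the labels do not say whether the replicates were separate cultures, so that the spread between them may be partly technical. No mouse age applies, and no transgene or deletion is named for these samples.

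In mESCs, FGF4 made by the cells themselves acts through FGF receptors, RAS, RAF and MEK on ERK, and ERK activity is known to prepare cells to leave the naive state, the state of the pre-implantation epiblast. ERK also switches on its own inhibitors, the Sprouty and Spred proteins and the phosphatases that remove phosphate from ERK, so transcripts of these genes follow ERK activity closely. Blocking MEK is one of the standard ways to hold mESCs in the naive state, usually together with LIF or a second inhibitor, and the comparison here shows MEK inhibition when LIF is not added.

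Total counts ranged from 14848601 to 26635239 in the 6 libraries, and 17702 of 49671 genes passed the filter on low counts. Levels are given in CPM, a gene's counts as a share of its library's total after scaling by library size, always as the 3 serum libraries followed by the 3 serum + PD03 libraries, and a log2 change is that of serum + PD03 over serum with its standard error (SE). A gene was called when edgeR's quasi-likelihood test gave a Benjamini-Hochberg adjusted p below 0.05 over all tested genes. The share of counts from mitochondrially encoded genes was 1.20%, 0.574% and 1.34% in serum and 1.20%, 1.27% and 1.305% in serum + PD03, so that serum library 2 stood below the other 5. It also differed most from its replicates, with a chi-square per gene of 10.3 and 13.4 against 2.39 to 4.66 for the other pairs. No external standard was used to scale the counts, so every change is relative to the total of each library, and fewer cells of a kind cannot be told apart from less RNA per cell. The defining markers of mESCs were present in both media, with Pou5f1 at 562, 606 and 561 CPM in serum and 620.5, 600.2 and 603 CPM in serum + PD03.

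As a check of the labels, 5 genes known to respond to ERK were chosen, and all 5 were lower in every library with PD03. Coordinates are those of GRCm38. Spry4 (ENSMUSG00000024427), an intracellular inhibitor of receptor tyrosine kinase signalling, stood at 121, 136 and 134 CPM in serum and 0.384, 1.15 and 0.257 CPM in serum + PD03. The lowest serum library was far above the highest library with PD03, and the log2 change was -7.56 ± 0.14 (edgeR quasi-likelihood test, adjusted p = 3.4e-41). Dusp6 (ENSMUSG00000019960, chr10:99263231-99267489), the cytoplasmic phosphatase of ERK, stood at 79.4, 90.9 and 84.4 CPM in serum and 10.4, 8.55 and 10.1 CPM in serum + PD03, a log2 change of -3.14 ± 0.10. Egr1 (ENSMUSG00000038418), an immediate-early transcription factor, stood at 43.0, 41.9 and 43.7 CPM in serum and 1.54, 1.19 and 2.31 CPM in serum + PD03, a log2 change of -4.73 ± 0.15. Among the ETS factors of the PEA3 group, Etv4 (ENSMUSG00000017724, chr11:101769742-101785371) stood at 82.6, 90.8 and 84.5 CPM in serum and 1.35, 2.21 and 1.35 CPM in serum + PD03, and Etv5 (ENSMUSG00000013089, chr16:22381309-22439719) at 391, 426 and 406 CPM in serum and 254, 239.8 and 254 CPM in serum + PD03. The groups did not overlap for either gene, yet the log2 change was -5.64 ± 0.14 for Etv4 and -0.71 ± 0.05 for Etv5, which kept most of its serum level.

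PD03 changed the level of 9885 of the 17702 tested genes, 55.8% of them, so that a count within a gene group has to be read against a high background. Of these genes, 5027 were higher with PD03 (28.4% of those tested) and 4858 were lower (27.4%). A call together with a change of at least 2-fold was made for 2029 genes that were higher (11.5%) and 1361 that were lower (7.69%), and at least 32-fold for 44 and 34 genes. The median log2 change over all tested genes was 0.01, and the median size of a called change was 0.67. CPM ranges of the 3 serum and the 3 serum + PD03 libraries did not overlap for 10813 genes (61.1%). To place the response against the spread between replicates, the share of counts that would have to be moved from some genes to others to turn one library into another was computed. This share was 13.1% to 15.1% for the 9 pairs across the media and 2.14% to 4.94% for the 6 pairs within a medium. Protein-coding genes were called more often (62.9% of 14617) than long noncoding genes (25.4% of 2052) and pseudogenes (15.6% of 937), classes that are also expressed at lower levels.

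**Figure D1:**
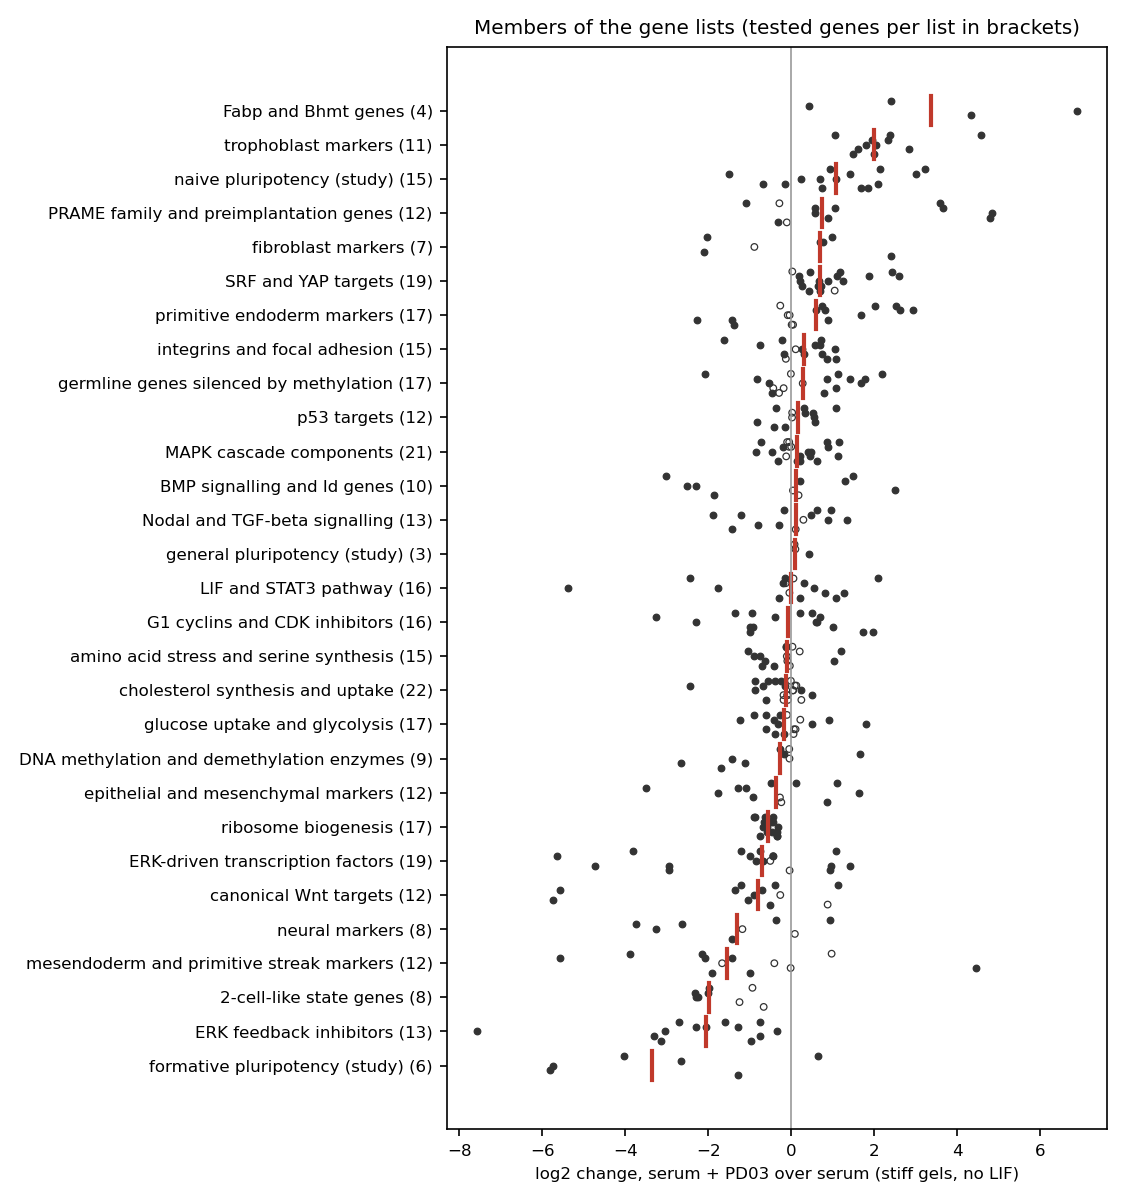
Log2 change of each tested member (points) of 29 gene lists between serum + PD03 and serum on stiff gels without LIF, with the median of each list as a vertical bar. Filled points passed the test and open points did not. All members of the ERK feedback inhibitors lie left of 0, all trophoblast markers lie right of it, and most lists hold members on both sides.

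The group of ERK feedback inhibitors was lower as a whole. All 13 of 13 members fell, 9 of them at least 2-fold, whereas 27.4% of all tested genes fell and 7.69% fell at least 2-fold. The median log2 change was -2.05, against 0.01 over all tested genes. The other Sprouty genes fell less than Spry4, with Spry1 at 30.3, 34.04 and 32.1 CPM in serum and 3.91, 5.97 and 4.43 CPM in serum + PD03 and Spry2 at 82.8, 80.8 and 82.8 CPM in serum and 18.001, 16.3 and 15.99 CPM in serum + PD03. Of the Spred genes, whose products bind RAS and RAF at the membrane, Spred1 fell most, from 99.1 ± 4.75 to 9.89 ± 1.07 CPM (mean ± SD, n = 3), a log2 change of -3.30 ± 0.09, while Spred2 fell by 0.96 and Spred3 by 1.61 on the log2 scale. Dusp4, a nuclear phosphatase of the same enzyme family as Dusp6, stood at 36.9, 41.1 and 39.4 CPM in serum and 5.12, 5.24 and 3.73 CPM in serum + PD03. Dusp5 and Dusp7 changed by -0.76 ± 0.11 and -0.76 ± 0.09. The smallest fall was that of Errfi1, an inhibitor of the EGF receptor family, with 41.9, 45.8 and 43.7 CPM in serum and 34.1, 34.2 and 34.2 CPM in serum + PD03. Dusp2 was called as well, but had at most 1.29 CPM in any library.

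Transcription factors and other early genes that ERK is known to induce were more mixed, with 12 of 19 lower and 4 higher (median log2 change -0.71). Among all tested genes 27.4% were lower and 28.4% higher. Myc, a driver of growth and biosynthesis, stood at 288, 333 and 308 CPM in serum and 41.1, 39.8 and 40.3 CPM in serum + PD03, a log2 change of -2.94 ± 0.07. The AP-1 subunits moved in different directions. Fosl1 fell from 7.25 ± 1.01 to 0.887 ± 0.305 CPM, Junb fell by 0.44 on the log2 scale, while Jun stood at 13.3, 14.5 and 12.7 CPM in serum and 33.95, 25.5 and 25.9 CPM in serum + PD03 and rose by 1.07 ± 0.10, and Fosl2 rose by 0.92 ± 0.10. Fos, at 2.17, 1.39 and 2.84 CPM in serum and 2.18, 1.19 and 1.48 CPM in serum + PD03, and Fosb did not pass the test, and both were low in every library. Epha2, an ephrin receptor, fell by 0.86, and Phlda1 by 0.99 on the log2 scale. Lif itself, the gene of the cytokine that was left out of the medium, stood at 3.70, 3.40 and 2.98 CPM in serum and 10.2, 8.51 and 8.74 CPM in serum + PD03 and rose by 1.42 ± 0.16, all 3 libraries with PD03 lying above all 3 without.

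Components of the cascade changed less than its targets. Of 21 genes from ligand to kinase, 11 rose and 5 fell, none of the falls reaching 2-fold, and the median log2 change was 0.14. The background was 28.4% of all tested genes higher and 27.4% lower. At the top of the cascade, the ligand Fgf4 stood at 128, 139 and 127 CPM in serum and 278, 299 and 296 CPM in serum + PD03, and the receptor Fgfr1 at 93.0, 97.1 and 93.7 CPM in serum and 177, 173 and 173 CPM in serum + PD03. Their log2 changes were 1.15 ± 0.06 and 0.88 ± 0.04, and Fgfr2 rose by 0.40 ± 0.07. Of the small GTPases, Nras fell by 0.72 on the log2 scale, while Hras did not pass the test (-0.12 ± 0.08). The RAF kinase gene Braf stood at 127, 104 and 126 CPM in serum and 63.7, 64.2 and 70.2 CPM in serum + PD03, a fall. Map2k1, the gene of MEK1 and a target of the inhibitor, rose by 0.62 ± 0.08, whereas Map2k2, the gene of MEK2, differed by -0.05 ± 0.05 and was not called. Mapk3, the gene of ERK1, fell by 0.45 on the log2 scale. Ksr1, a scaffold that holds RAF, MEK and ERK together, rose from 23.3 ± 1.14 to 51.0 ± 3.39 CPM.

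Most naive pluripotency genes rose, while 2 of the 3 general markers were not called. The pluripotent state was read from the marker genes that the study lists for general, naive and formative pluripotency, some of which it shows on these samples, so that their direction is not independent evidence. Of the general markers, Sall4 rose by 0.42 ± 0.05, whereas Pou5f1 (the gene of OCT4) and Sox2 differed by 0.08 ± 0.07 and 0.10 ± 0.04 and were not called, although Sox2 passed the test without serum + PD03 library 1 or serum library 2 (lowest adjusted p 0.044). Of the 15 naive markers, 12 rose and 3 fell, and 8 rose at least 2-fold, with a median log2 change of 1.06. For comparison, 28.4% of all tested genes rose, 27.4% fell and 11.5% rose at least 2-fold. Nanog, a homeodomain factor of the naive network, stood at 174, 168 and 186 CPM in serum and 792, 768 and 778 CPM in serum + PD03. Tbx3, a T-box factor, stood at 69.0, 67.5 and 75.3 CPM in serum and 579, 555 and 575 CPM in serum + PD03, a log2 change of 3.01 ± 0.05 (edgeR quasi-likelihood test, adjusted p = 8.3e-42). Prdm14, a repressor of FGF receptor signalling and DNA methylation, was the naive marker with the largest log2 change at 3.22 ± 0.12, from a low level, with 4.30, 5.20 and 5.48 CPM in serum and 48.6, 44.6 and 43.7 CPM in serum + PD03.

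The remaining naive markers fall into those that rose at least 2-fold and those that moved less. Tfcp2l1, a target of both LIF and WNT signals, stood at 143, 151 and 156 CPM in serum and 637, 648 and 638 CPM in serum + PD03. Klf2 stood at 130.2, 145 and 145 CPM in serum and 377, 369.5 and 366 CPM in serum + PD03, and Klf4 at 113, 121 and 124 CPM in serum and 244, 260.1 and 244 CPM in serum + PD03. Both Krüppel-like factors were above every serum library in all 3 libraries with PD03, while the third of them, Klf5, fell from 711 ± 61.3 to 440.4 ± 10.2 CPM. Dppa3 and Fbxo15 rose by 1.84 ± 0.09 and 1.67 ± 0.08, and Esrrb, Nr5a2 and Tcl1 by 0.69 ± 0.05, 0.75 ± 0.05 and 0.93 ± 0.09. Zfp42 (Rex1), the most used reporter gene of naive cells, rose by only 0.23 ± 0.06, with 409.9, 442 and 439 CPM in serum and 501, 511 and 496 CPM in serum + PD03. The other 2 naive markers that were lower were Nr0b1 (DAX1), which fell from 122 ± 7.70 to 43.1 ± 1.91 CPM, and Stat3, the effector of LIF, which fell by 0.15 on the log2 scale, a call that was lost without serum + PD03 library 1, serum + PD03 library 3 or serum library 2 (highest adjusted p 0.23, edgeR).

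**Figure D2:**
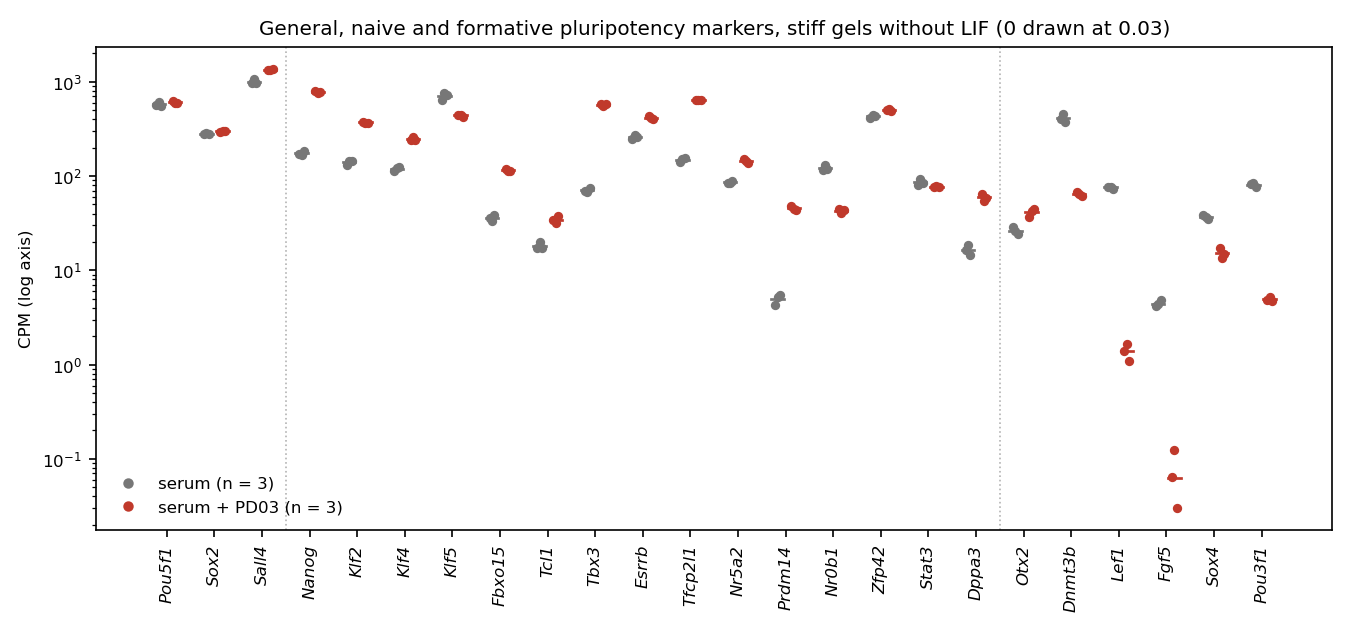
CPM (log axis) in each of the 3 serum libraries (grey) and the 3 serum + PD03 libraries (red) for the 24 general, naive and formative pluripotency markers, with horizontal bars at the group means. Nanog, Tbx3, Tfcp2l1 and Prdm14 separate upward and Lef1, Fgf5, Pou3f1 and Dnmt3b downward, while the points of Pou5f1 overlap.

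Formative markers, genes of the epiblast after implantation, fell in 5 of 6 cases, with a median log2 change of -3.35. The share of all tested genes that fell was 27.4%. Fgf5 stood at 4.15, 4.37 and 4.81 CPM in serum and 0.0641, 0.123 and 0 CPM in serum + PD03, which is close to absence with PD03. Lef1, a transcriptional partner of beta-catenin, stood at 77.4, 76.9 and 73.2 CPM in serum and 1.41, 1.64 and 1.09 CPM in serum + PD03, and Pou3f1 (OCT6) at 82.5, 84.5 and 76.2 CPM in serum and 4.80, 5.20 and 4.75 CPM in serum + PD03. Their log2 changes were -5.74 ± 0.14 and -4.03 ± 0.11. Sox4 fell by 1.28 on the log2 scale. Otx2, which is needed for the formative state, was the exception, at 28.9, 26.1 and 24.2 CPM in serum and 37.1, 43.0 and 44.3 CPM in serum + PD03, a rise of 0.64 ± 0.09.

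The sixth formative marker, Dnmt3b, encodes a de novo DNA methyltransferase, and it fell together with its family. Dnmt3b stood at 401, 451 and 375 CPM in serum and 67.6, 64.4 and 61.1 CPM in serum + PD03, Dnmt3a at 157, 162 and 153 CPM in serum and 56.9, 60.9 and 56.3 CPM in serum + PD03, and Dnmt3l, their catalytically inactive cofactor, at 203, 229 and 209 CPM in serum and 64.3, 66.7 and 67.8 CPM in serum + PD03. All 3 were lower in every library with PD03, with log2 changes of -2.67, -1.44 and -1.69. Per kilobase of exon, Dnmt3b was at 80.1 CPM per kb in serum and Dnmt3a at 9.47, and with PD03 these levels were 12.6 and 3.49. The length is the union of all annotated exons of a gene, which can be longer than the transcript that is expressed. These values therefore do not rank the genes against each other. The maintenance enzyme Dnmt1 was not called, with 389, 403 and 405 CPM in serum and 391, 391.9 and 373 CPM in serum + PD03, and its partner Uhrf1 fell by only 0.17 on the log2 scale. Of the enzymes that oxidise methylcytosine, Tet2 stood at 328, 279 and 337 CPM in serum and 991, 978 and 982 CPM in serum + PD03 and rose by 1.64 ± 0.06, Tet1 fell by 0.28 and Tet3 was not called. Tdg, which excises the oxidised bases, fell by 1.12 on the log2 scale.

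Germline genes that DNA methylation is known to silence in somatic cells moved in both directions. Of 17 tested genes, 8 rose and 4 fell, and the median log2 change was 0.27. Across all tested genes 28.4% rose and 27.4% fell. Tuba3a stood at 14.3, 16.4 and 14.7 CPM in serum and 50.1, 53.7 and 49.8 CPM in serum + PD03, Dazl, an RNA-binding protein of germ cells, at 7.998, 10.1 and 9.61 CPM in serum and 20.1, 20.6 and 19.3 CPM in serum + PD03, and Stk31 at 6.54, 5.62 and 5.96 CPM in serum and 12.6, 13.5 and 12.7 CPM in serum + PD03. These rises of 1.77 ± 0.08, 1.13 ± 0.11 and 1.09 ± 0.12 stood beside falls of Tdrd1 (-2.08 ± 0.31) and of Ddx4 (-0.84 ± 0.12), while Mael and Sycp1 were not called. Summed over the list, the level was 107 to 111 CPM in serum and 167 to 171 CPM in serum + PD03.

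All 11 of 11 trophoblast markers rose, each at least 2-fold, whereas 28.4% of all tested genes rose and 11.5% rose at least 2-fold. The median log2 change of the list was 1.996, and its summed level was 209.8 to 229.8 CPM in serum and 842 to 939 CPM in serum + PD03. Gata3, a transcription factor of the trophectoderm, stood at 13.2, 13.9 and 14.01 CPM in serum and 99.2, 95.3 and 100.003 CPM in serum + PD03, a log2 change of 2.85 ± 0.09. Tfap2c, which is also expressed in naive mESCs and germ cells, stood at 29.6, 34.3 and 29.1 CPM in serum and 107, 111 and 104 CPM in serum + PD03, and Hand1 at 12.5, 12.5 and 14.5 CPM in serum and 56.1, 49.8 and 51.3 CPM in serum + PD03. The simple epithelial keratins carried most of the sum, with Krt8 at 65.6, 75.2 and 69.9 CPM in serum and 293, 257 and 259.7 CPM in serum + PD03 and Krt18 at 62.9, 65.4 and 59.3 CPM in serum and 286, 255 and 236 CPM in serum + PD03, and Krt7 rose by 2.37 ± 0.14. Tead4 and Ascl2 rose by 1.62 ± 0.09 and 1.495 ± 0.17. Plac1, a placental gene on the X chromosome (ENSMUSG00000061082, chrX:53069995-53240111), stood at 0.523, 0.555 and 0.406 CPM in serum and 12.4, 11.9 and 11.8 CPM in serum + PD03. The defining factors Cdx2 and Elf5 were low in both media. Cdx2 stood at 3.74, 4.51 and 2.505 CPM in serum and 7.43, 7.86 and 7.001 CPM in serum + PD03, and Elf5 did not exceed 0.512 CPM in any library and was not called without serum + PD03 library 1 or serum library 3 (highest adjusted p 0.076, edgeR).

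Primitive endoderm markers were split between matrix genes that rose and transcription factors that mostly did not. In this list, 9 of 17 rose, 3 fell and 5 were not called (median log2 change 0.58), against 28.4% higher and 27.4% lower among all tested genes. The genes of type IV collagen, the network-forming collagen of basement membranes, rose together, with Col4a1 at 94.4, 108 and 108 CPM in serum and 606, 580.1 and 586 CPM in serum + PD03 and Col4a2 at 50.9, 62.1 and 54.6 CPM in serum and 352, 321 and 345 CPM in serum + PD03. Sparc, a collagen-binding matrix protein, rose from 213 ± 17.4 to 686 ± 13.6 CPM, and Lama1, a laminin chain, from 87.6 ± 8.64 to 161 ± 5.43 CPM. Dab2, an endocytic adaptor, rose by 2.01 ± 0.08 and Dkk1, a secreted WNT inhibitor, by 2.94 ± 0.15. By contrast, Sox17, Gata4 and Pdgfra, which define the lineage, were not called and stayed at or below 6.98 CPM in every library (Gata4 passed the test only without serum library 1, adjusted p 0.025), Gata6 rose by 0.58 ± 0.17 and Sox7 fell from 10.1 ± 1.12 to 2.06 ± 0.142 CPM.

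Markers of the primitive streak and of neural cells were mostly lower, whereas 27.4% of all tested genes fell and 7.69% fell at least 2-fold. For the streak, 7 of 12 tested genes fell, each at least 2-fold, 1 rose and 4 were not called (median log2 change -1.55). The levels were low in all libraries, with T (Brachyury) at 3.89, 4.23 and 4.13 CPM in serum and 0.128, 0.245 and 0.450 CPM in serum + PD03 and Eomes at 9.19, 9.85 and 8.60 CPM in serum and 3.91, 3.35 and 3.02 CPM in serum + PD03. Sp5, a target of WNT signals in the streak, stood at 7.998, 10.4 and 11.03 CPM in serum and 0.448, 0.123 and 0.0642 CPM in serum + PD03. Gsc was the member that rose, from 0.128 ± 0.0683 to 2.85 ± 0.485 CPM. For the neural list, 5 of 8 tested genes fell and 1 rose (median log2 change -1.298). Sox3 stood at 8.04, 8.18 and 7.72 CPM in serum and 0.641, 0.532 and 0.642 CPM in serum + PD03 and Pax6 at 23.6, 24.9 and 26.1 CPM in serum and 3.33, 4.66 and 3.66 CPM in serum + PD03, log2 changes of -3.73 ± 0.24 and -2.64 ± 0.12. Nes, the gene of the intermediate filament nestin, rose by 0.93 ± 0.06.

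Lists for other cells that the cultures could hold gave low levels. Their counts stand against 28.4% of all tested genes that rose and 27.4% that fell. Of 7 tested fibroblast markers, 4 rose, 2 fell and 1 was not called (median log2 change 0.69), and Lum and Fap did not pass the filter on low counts. The summed level was 51.9 to 57.1 CPM in serum and 74.6 to 84.2 CPM in serum + PD03, most of it from Col1a1, which stood at 30.2, 29.7 and 35.5 CPM in serum and 66.8, 66.4 and 55.2 CPM in serum + PD03. Thy1 and Dcn fell by 2.10 and 2.03 on the log2 scale. Of 8 tested genes of the 2-cell-like state, a rare state of mESC cultures, 5 fell, each at least 2-fold, and 3 were not called (median log2 change -1.99), with summed levels of 7.90 to 13.9 CPM in serum and 2.37 to 4.30 CPM in serum + PD03. Most of these are near-identical copies, such as the Zscan4 genes, and their single values are uncertain.

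Genes of the oocyte and the early embryo included some of the largest rises. In a list of PRAME family and preimplantation genes, 8 of 12 rose and 2 fell (median log2 change 0.74), and 4 fell without serum library 1. As background, 28.4% of all tested genes rose and 27.4% fell. Spic, an ETS-family transcription factor, stood at 1.01, 1.25 and 1.42 CPM in serum and 34.8, 29.01 and 34.6 CPM in serum + PD03. Pramel7 stood at 0.860, 0.624 and 1.76 CPM in serum and 13.3, 13.7 and 12.6 CPM in serum + PD03 and Pramel6 at 0.411, 0.277 and 0.609 CPM in serum and 4.74, 5.24 and 5.78 CPM in serum + PD03, with log2 changes of 3.65 ± 0.22 and 3.59 ± 0.29, and members of this family are alike enough that reads may be split between them. Ooep and Khdc3, of the subcortical maternal complex, rose by 1.06 ± 0.08 and 0.89 ± 0.12. Dppa5a, already abundant, rose from 524 ± 29.6 to 776 ± 21.8 CPM, while Dppa4 fell from 117 ± 2.21 to 54.9 ± 0.637 CPM and Dppa2 was not called (-0.11 ± 0.06) except without serum library 1 (adjusted p 0.032, edgeR). Of a short list of Fabp and Bhmt genes, all 4 tested rose (median log2 change 3.37). Bhmt, the enzyme that passes a methyl group from betaine to homocysteine, stood at 0.523, 0.0693 and 0.880 CPM in serum and 62.0, 59.3 and 58.1 CPM in serum + PD03, the largest rise among genes of at least 5 CPM, and its neighbour of the same family, Bhmt2, at 0.336, 0.555 and 0.271 CPM in serum and 10.3, 6.46 and 6.62 CPM in serum + PD03. Fabp3, a fatty acid-binding protein, rose by 2.40 ± 0.06.

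Canonical WNT targets were lower in 9 of 12 cases and higher in 1 (median log2 change -0.80), where 27.4% of all tested genes were lower. Besides Lef1 and Sp5, Axin2, the scaffold of the beta-catenin destruction complex and a general reporter of the pathway, stood at 41.3, 48.7 and 41.2 CPM in serum and 18.3, 18.7 and 19.1 CPM in serum + PD03. Notum and Znrf3, secreted and membrane-bound inhibitors of the pathway, fell by 0.70 and 0.40 on the log2 scale. Tcf7l1 (TCF3), a repressor at WNT target genes, was the gene that rose, at 213, 222 and 215 CPM in serum and 449.9, 477 and 491 CPM in serum + PD03, a log2 change of 1.13 ± 0.05.

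In the NODAL and TGF-beta pathway, 5 of 13 genes rose and 6 fell (median log2 change 0.11). Both this list and the next stand against 28.4% higher and 27.4% lower among all tested genes. Nodal rose by 0.61 ± 0.07, and its inhibitors parted, with Lefty1 at 42.3, 49.1 and 43.7 CPM in serum and 17.9, 19.5 and 20.7 CPM in serum + PD03 and Lefty2 at 40.9, 47.0 and 45.6 CPM in serum and 79.6, 89.4 and 77.2 CPM in serum + PD03. Skil (SnoN), a corepressor of SMAD proteins, fell from 341 ± 13.7 to 91.6 ± 5.53 CPM, and Smad3 rose from 21.8 ± 3.48 to 55.2 ± 2.74 CPM. Of 10 genes of the BMP pathway, 4 rose and 4 fell (median log2 change 0.11). The ligand Bmp4 stood at 63.8, 65.0 and 69.8 CPM in serum and 7.82, 8.51 and 7.90 CPM in serum + PD03, a log2 change of -3.02 ± 0.11. The Id genes, targets of BMP signals that restrain differentiation, were not uniform. Id1 stood at 60.6, 69.3 and 62.8 CPM in serum and 14.4, 11.05 and 8.54 CPM in serum + PD03 and Id3 at 52.8, 58.3 and 52.4 CPM in serum and 15.5, 14.9 and 14.5 CPM in serum + PD03, Id2 was not called (0.04 ± 0.06), and Id4 rose by 1.495 ± 0.16 from a low level. Msx2 rose by 2.49 ± 0.11 while Msx1 fell by 2.30 on the log2 scale.

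For LIF and STAT3, 7 of 16 genes rose and 6 fell (median log2 change 0.00), against 28.4% and 27.4% of all tested genes. The receptor chain Lifr was not called (0.05 ± 0.04), Il6st (gp130), its partner, rose by 0.29 ± 0.05 and Jak1 by 0.54 ± 0.06. Socs3, the direct STAT3 target most often used to read LIF signalling, was not called, with 43.1, 46.3 and 55.6 CPM in serum and 40.8, 47.5 and 42.1 CPM in serum + PD03. It passed the test without serum + PD03 library 2 or serum library 1 (lowest adjusted p 0.015, edgeR). Socs2 fell from 60.9 ± 2.98 to 17.9 ± 1.15 CPM and Pim2, a survival kinase, from 123 ± 7.80 to 22.4 ± 1.55 CPM. Gbx2, a homeobox gene of both LIF and ERK signals, stood at 63.9, 73.1 and 69.9 CPM in serum and 1.86, 1.76 and 1.28 CPM in serum + PD03, a log2 change of -5.37 ± 0.11. Klf4 and Tfcp2l1, which are in this list too, are also naive markers.

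Most tested targets of SRF and YAP, among them many genes of the actin cytoskeleton, rose. SRF acts where actin polymerises and YAP where cells are under mechanical load. Of their 19 tested targets 17 rose, 6 of them at least 2-fold, while the other 2 were not called (median log2 change 0.68). By comparison, 28.4% of all tested genes rose and 11.5% rose at least 2-fold. The study shows some of these genes, among them Acta1, Acta2, Tagln, Cnn1, Flnc and Thbs1, as examples from these samples. Acta2, smooth muscle actin, stood at 22.6, 21.01 and 26.4 CPM in serum and 151, 138 and 130.1 CPM in serum + PD03, a log2 change of 2.58 ± 0.11. Acta1, skeletal actin, stood at 6.39, 6.17 and 5.82 CPM in serum and 36.4, 31.95 and 30.5 CPM in serum + PD03, and Myl9, a myosin light chain, at 15.3, 15.3 and 14.2 CPM in serum and 56.6, 54.9 and 54.0 CPM in serum + PD03. Tagln, which binds actin filaments, stood at 9.79, 12.5 and 9.34 CPM in serum and 26.4, 24.3 and 23.6 CPM in serum + PD03. The calponin Cnn2 rose by 1.18 ± 0.06, whereas Cnn1 stood at 6.69, 7.63 and 6.57 CPM in serum and 9.42, 9.66 and 8.80 CPM in serum + PD03 and rose by only 0.42 ± 0.18, a call lost in 4 of 6 fits that left out 1 library (without serum + PD03 library 1, serum + PD03 library 2, serum library 1 or serum library 3, highest adjusted p 0.13, edgeR). Tpm1 (tropomyosin) and Vcl (vinculin) rose by 0.88 ± 0.05 and 0.68 ± 0.05. Of the genes best known as YAP targets, Ccn1 and Ccn2 rose by 0.67 ± 0.09 and 0.71 ± 0.05, Amotl2 by 1.10 ± 0.07, and Ankrd1, at no more than 1.54 CPM, was called only without serum + PD03 library 3 (adjusted p 0.04, edgeR). Thbs1 (thrombospondin) was not called either, with 73.4, 69.8 and 67.6 CPM in serum and 72.2, 72.7 and 69.6 CPM in serum + PD03. Srf itself rose by 0.22 ± 0.05.

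The promoters of the SRF and YAP targets were searched for the CArG box, the site of SRF. Both strands of the RefSeq windows were read, from 250 bases before to 50 bases after each start (GRCm38.p6). Of 16 members with a window, 5 held the box (31.2%), against 488 of 27025 genes (1.81%). The 5 members were Acta1, Cnn2, Myl9, Vcl and Srf. The list was chosen as targets of SRF and YAP, so an excess of the site was built into it. Whether SRF took part in the rise was not tested. Of 11 ERK feedback inhibitors with a window 1 held a CArG box (Dusp5), and of 12 ERK-driven transcription factors and other early genes 1 (Egr2). The ETS motif CCGGAAG, on either strand, was in none of those 11 and 12 windows, against 9.93% of all genes, and the AP-1 site, TGACTCA or TGAGTCA, in 1 of these windows, that of Lif, against 5.95% of all genes. A missing match says only that these letters are not in the window. The part before the start around each match is shown with the CArG boxes in capitals, since these are the members whose promoter holds the site of the factor the list is named for.
Acta1 (chr8:123894799-123894888, minus strand): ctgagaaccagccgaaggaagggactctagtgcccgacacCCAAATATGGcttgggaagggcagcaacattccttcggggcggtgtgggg
Cnn2 (chr10:79988504-79988593, plus strand): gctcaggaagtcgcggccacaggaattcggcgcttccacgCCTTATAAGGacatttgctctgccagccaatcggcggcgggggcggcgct
Myl9 (chr2:156775263-156775352, plus strand): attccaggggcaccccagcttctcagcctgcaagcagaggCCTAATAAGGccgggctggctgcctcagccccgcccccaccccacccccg
Vcl (chr14:20929148-20929220, plus strand): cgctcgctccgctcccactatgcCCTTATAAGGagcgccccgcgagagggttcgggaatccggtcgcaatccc
Srf (chr17:46556175-46556284, minus strand): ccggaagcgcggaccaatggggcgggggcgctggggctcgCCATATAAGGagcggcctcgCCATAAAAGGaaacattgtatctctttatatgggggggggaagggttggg
Srf held 2 such boxes and the others 1 each. The promoter of Acta1, with the largest log2 change of these genes (2.42), and that of Srf, with the smallest (0.22), both carried the site.

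Adhesion genes leaned upward, with 9 of 15 tested genes of integrins and focal adhesions higher and 4 lower (median log2 change 0.32). Of all tested genes, 28.4% were higher and 27.4% lower. Vcl and Zyx, which rose, are in this list and in that of the SRF and YAP targets, so they were counted in both. Fn1, fibronectin, the protein with which the gels were coated, was the gene whose share of counts grew most, at 1078, 1056 and 1087 CPM in serum and 2234, 2323 and 2252 CPM in serum + PD03. Tln1, talin, which links integrins to actin, rose from 241 ± 8.63 to 501 ± 12.9 CPM. Of the integrin genes, Itgav rose by 0.86 ± 0.06 and Itgb5 by 0.56 ± 0.08. Itga5 was not called (0.10 ± 0.06), and Itgb1 fell by 0.21 on the log2 scale. Itga3, a laminin receptor, fell by 0.76. Markers of epithelial and mesenchymal cells did not follow one pattern, with 4 of 12 higher and 6 lower (median log2 change -0.38). Esrp1, an epithelial splicing regulator, stood at 77.0, 83.1 and 75.7 CPM in serum and 6.73, 6.51 and 7.84 CPM in serum + PD03, and Epcam at 110.4, 125 and 109 CPM in serum and 34.5, 34.04 and 32.7 CPM in serum + PD03, while Cdh1 (E-cadherin) changed by 0.12 ± 0.05, a call lost without serum + PD03 library 1, serum + PD03 library 2, serum library 1 or serum library 3 (highest adjusted p 0.31, edgeR). Of the mesenchymal genes, Vim and Cdh2 fell, with log2 changes of -0.93 and -1.296, and Zeb1 rose from 18.8 ± 0.714 to 57.9 ± 3.02 CPM.

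Of 16 regulators of the G1 phase, 8 were higher and 8 lower (median log2 change -0.09), against 28.4% and 27.4% of all tested genes. The count of higher ones was 6 without serum + PD03 library 1 or serum library 2. D-type cyclins differed from one another. Ccnd2 stood at 73.7, 76.3 and 66.9 CPM in serum and 7.56, 7.94 and 6.81 CPM in serum + PD03 and Ccnd1 at 213, 215 and 210.4 CPM in serum and 78.3, 90.6 and 81.6 CPM in serum + PD03, whereas Ccnd3 stood at 235, 278 and 256 CPM in serum and 396, 396 and 391 CPM in serum + PD03. Their log2 changes were -3.27 ± 0.09, -1.35 ± 0.05 and 0.62 ± 0.06. Per kilobase of all annotated exons, Ccnd1 was at 45.2 CPM per kb and Ccnd3 at 29.2 in serum, and at 17.7 and 45.0 with PD03. That length can exceed the expressed transcript, so these values do not rank the cyclins against each other. Cdk6, a partner of these cyclins, fell from 111 ± 2.48 to 22.7 ± 1.88 CPM, and Cdk4 by 0.39 on the log2 scale. The E-type cyclins Ccne1 and Ccne2 fell by 0.93 and 0.99. Inhibitors of cyclin-dependent kinases rose in part. Cdkn1b (p27) stood at 11.7, 11.4 and 13.3 CPM in serum and 47.5, 47.9 and 45.8 CPM in serum + PD03, Cdkn1a (p21) rose by 1.02 ± 0.08, and Cdkn1c (p57) fell by 0.95. The MYC genes moved apart too, since Mycn fell by 0.98 and Mycl rose by 1.72 ± 0.11.

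Genes of ribosome production were lower throughout. All 17 of 17 fell, none of them 2-fold, whereas 27.4% of all tested genes fell. The median log2 change was -0.57, with a range from -0.90 to -0.33. Ncl, nucleolin, stood at 5268, 4997 and 5235 CPM in serum and 3285, 3381 and 3317 CPM in serum + PD03, and Npm1, nucleophosmin, at 4610.0, 4824 and 4576 CPM in serum and 3249, 3428 and 3307 CPM in serum + PD03. These 2 genes lost the largest shares of counts of all called genes. The list's summed level was 14491 to 14659.8 CPM in serum and 9722 to 10074 CPM in serum + PD03. Rrn3, an initiation factor of RNA polymerase I, fell by 0.90 and Nolc1 by 0.87 on the log2 scale.

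Metabolic lists held changes in both directions, as did all tested genes, of which 28.4% rose and 27.4% fell. Of 17 genes of glucose uptake and glycolysis, 9 fell and 3 rose (median log2 change -0.17). Ldha, lactate dehydrogenase, stood at 1079, 1229 and 1079 CPM in serum and 573, 638 and 596 CPM in serum + PD03 and the lactate exporter Slc16a3 at 78.3, 91.9 and 75.4 CPM in serum and 32.2, 35.6 and 35.5 CPM in serum + PD03. Hk1, hexokinase 1, stood at 35.2, 33.8 and 32.6 CPM in serum and 115, 116 and 121 CPM in serum + PD03, and the glucose transporter Slc2a3 rose by 0.91 ± 0.05. Without serum library 2, 5 of these genes rose. Of 22 genes of cholesterol synthesis and uptake, 9 fell, 2 rose and 11 were not called (median log2 change -0.12). Idi1, an isomerase of the pathway, fell by 0.88 on the log2 scale, and 1 member fell at least 2-fold, with a log2 change of -2.45. The count that rose was 4 without serum library 2. Of 15 genes of amino acid stress and serine synthesis, 7 fell and 2 rose (median log2 change -0.12). Mthfd2 fell by 1.05 and Phgdh, the first enzyme of serine synthesis, by 0.90, and Asns, asparagine synthetase, stood at 104, 119 and 102 CPM in serum and 241, 251 and 245 CPM in serum + PD03. Of 12 p53 targets, 6 rose and 4 fell (median log2 change 0.16), with Sesn1 at 1.08 ± 0.08 the only one to rise 2-fold.

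**Figure D3:**
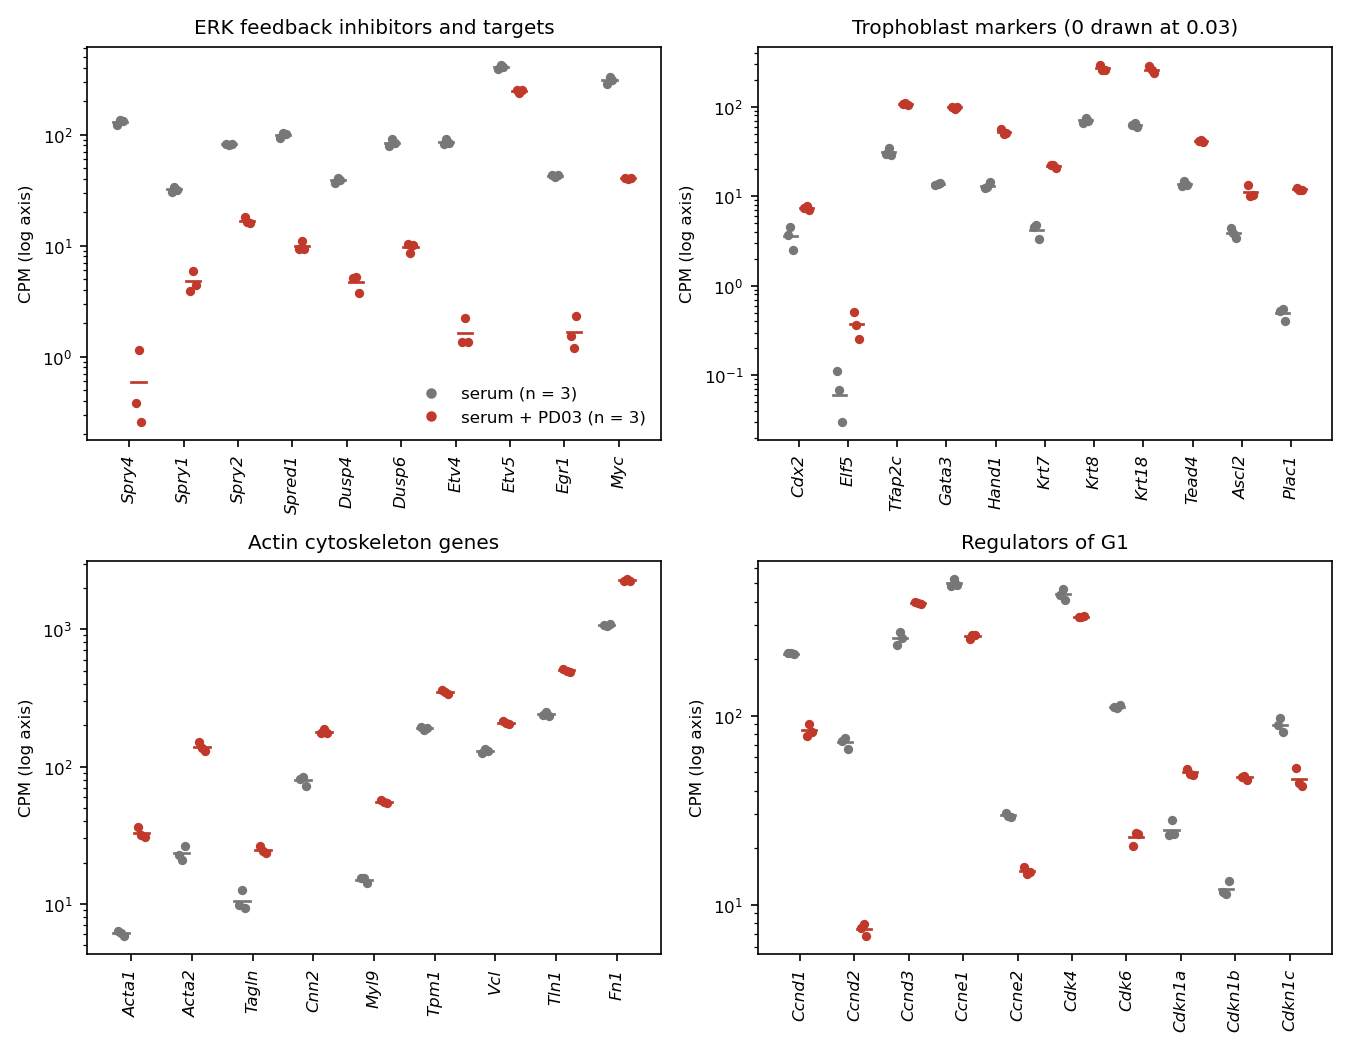
CPM (log axis) per library in serum (grey) and serum + PD03 (red), with bars at the group means. Shown are selected members of 4 groups, namely ERK feedback inhibitors and targets, trophoblast markers, actin and adhesion genes, and regulators of G1. Members of the first group separate downward and those of the next 2 upward, while Ccnd1, Ccnd2 and Cdk6 separate downward and Ccnd3, Cdkn1b and Cdkn1a upward.

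The largest rises at a mean of 5 CPM or more with groups that did not overlap were led, after Bhmt, by Gm13128, a predicted gene, at 0.523, 0.485 and 0.474 CPM in serum and 26.6, 23.3 and 23.7 CPM in serum + PD03. Crxos, a homeobox gene of the early embryo, stood at 0.822, 1.39 and 0.948 CPM in serum and 48.05, 49.0 and 45.2 CPM in serum + PD03, and Ly6a (Sca-1), a surface protein, at 4.82, 3.26 and 4.87 CPM in serum and 175, 168 and 174 CPM in serum + PD03. Vnn1, a pantetheinase, rose by 5.23 ± 0.22, and Adh1, an alcohol dehydrogenase, by 5.02 ± 0.30. Trim43a, a member of the list of preimplantation genes above, stood at 0.411, 0.485 and 0.271 CPM in serum and 13.5, 9.08 and 11.8 CPM in serum + PD03 and belongs to a family of close copies, so its value is uncertain. Ddr2, a receptor tyrosine kinase for fibrillar collagen, stood at 2.62, 2.57 and 1.49 CPM in serum and 60.5, 60.6 and 60.7 CPM in serum + PD03 and showed almost no spread with PD03.

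The largest fall was that of Vrtn (vertnin), which had 660 counts over the 3 serum libraries and 0, 2 and 0 counts with PD03. Its level was 328 times higher in serum, with an exact 95% binomial interval of 90.5 to 2715 that covers counting error only. Jph4, a junctophilin, stood at 16.8, 14.3 and 15.4 CPM in serum and 0.961, 0.286 and 0.0642 CPM in serum + PD03, Slc23a1, a transporter of ascorbate, at 13.4, 7.003 and 10.9 CPM in serum and 0.512, 0.327 and 0.193 CPM in serum + PD03, and Soga3 at 22.2, 23.6 and 24.4 CPM in serum and 0.897, 0.818 and 1.54 CPM in serum + PD03. With Spry4, Lef1, Etv4, Sp5, Gbx2 and Egr1, these genes make up the 10 largest falls. In terms of the share of all counts, Actb, Eif2s2, mt-Co1 and Ckb gained most after Fn1. Actb stood at 4444, 5158 and 4486 CPM in serum and 5955, 5819 and 5858 CPM in serum + PD03, Eif2s2, a subunit of an initiation factor of translation, at 895, 911 and 884 CPM in serum and 1895, 1890.4 and 1872 CPM in serum + PD03, and Ckb, brain creatine kinase, at 215, 229 and 235 CPM in serum and 1039.9, 1024 and 1010.4 CPM in serum + PD03. The exception to tight replicates was mt-Co1, at 2755, 1350.5 and 3020.4 CPM in serum and 3057, 3430.4 and 3262 CPM in serum + PD03, where serum library 2 with its low mitochondrial share stood apart. Without that library its log2 change was 0.18 and its adjusted p 0.3 (edgeR), and without serum + PD03 library 2 its adjusted p was 0.055. Kpnb1, Pabpc1 and Hnrnpab lost most after Ncl and Npm1, with log2 changes of -0.60 ± 0.04, -0.26 ± 0.04 and -0.65 ± 0.05.

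Whether the response depended on the absence of LIF was tested against the effect of PD03 in serum + LIF on the same stiff gels (3 libraries in serum + LIF, 1 of them from another sequencing pool, and 3 in serum + LIF + PD03). The comparisons share no library. With LIF, 9945 genes were called. Of the 9885 genes called without LIF, 84.8% were also called with LIF in the same direction, and of the 9945 called with LIF 84.3% were called without it in the same direction, while 6 genes were called in opposite directions. Across the 17702 genes the log2 changes had a Pearson correlation of 0.88, given as a description, in which all points of an axis come from the same libraries. The difference between the effects was called for 193 genes (1.09%), of which 75 had a higher and 118 a lower log2 change without LIF, and 12 differed by at least 2-fold. The count was 92 without serum + LIF library 1, 110 without serum + LIF + PD03 library 1, 113 and 115 without serum + PD03 library 3 and 2, and 128 without serum library 2, and it was 290 with DESeq2.

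Large shares of the naive markers and of the SRF and YAP targets were called for this difference. Calls were made in other lists too, some of them for shared members. In the LIF and STAT3 pathway 5 of 16 genes were called, 4 with a higher and 1 with a lower log2 change without LIF. Integrins and focal adhesion held 4 of 15 and formative markers 2 of 6, all lower. With 1 library left out, these lower counts were 2 to 4 and 0 to 2. Of the 15 naive markers, 10 were called, and all 10 had the higher log2 change without LIF. Esrrb, an orphan nuclear receptor of the naive network, stood at 259.8 ± 12.4 CPM in serum and 418 ± 13.1 CPM in serum + PD03 without LIF and at 327 ± 3.41 CPM in serum + LIF and 378 ± 5.27 CPM in serum + LIF + PD03 (mean ± SD, n = 3), so that its log2 change was 0.69 without and 0.21 with LIF, a difference of 0.48 ± 0.06 (edgeR quasi-likelihood test, adjusted p = 6.5e-06). Tfcp2l1 stood at 149.7 ± 6.66 CPM in serum and 641 ± 6.27 CPM in serum + PD03 without LIF and at 214 ± 6.46 CPM in serum + LIF and 675 ± 27.004 CPM in serum + LIF + PD03. Its levels with PD03 thus lay near each other, while its level in serum alone lay below that in serum + LIF. Klf4 and Tbx3 differed by 0.44 ± 0.07 and 0.44 ± 0.07, Nanog by 0.31 ± 0.08 and Prdm14 by 0.73 ± 0.17. Zfp42 changed by 0.23 without and by -0.09 with LIF, a difference of 0.31 ± 0.08. For Klf5, Nr0b1, Stat3, Nr5a2 and Dppa3 the difference was not called. The count of called naive markers was 4 to 8 when 1 library was left out, with the lowest value without serum library 1 and without serum + LIF library 1. It was 5 without serum + LIF + PD03 library 1 or 3 or serum + LIF library 2, and 6 without serum + LIF + PD03 library 2 or any 1 of the 3 serum + PD03 libraries. The calls of Nanog and Zfp42 were lost in 11 of 12 and 9 of 12 such fits and that of Prdm14 without serum library 1 or serum + LIF library 1, with adjusted p up to 0.24, 0.19 and 0.15 (edgeR).

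Of the 19 tested SRF and YAP targets, 14 were called and all 14 rose less without LIF. Acta2 stood at 23.3 ± 2.77 CPM in serum and 139.6 ± 10.7 CPM in serum + PD03 without LIF and at 13.1 ± 2.26 CPM in serum + LIF and 172 ± 17.7 CPM in serum + LIF + PD03, a difference of -1.14 ± 0.17 between the effects (adjusted p = 2.4e-05). Thbs1 changed by 0.02 without and by 0.81 with LIF, and Zyx (zyxin) by 0.26 and 0.90. Tagln and Flnc differed by -0.86 ± 0.18 and -0.68 ± 0.10. The count of called targets was 9 to 14 when 1 library was left out, with 9 without serum library 2, serum + LIF library 2 or serum + LIF + PD03 library 1. The trophoblast keratins Krt8 and Krt18 differed by -0.59 ± 0.11 and -0.59 ± 0.10, while the other 9 trophoblast markers were not called.

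**Figure D4:**
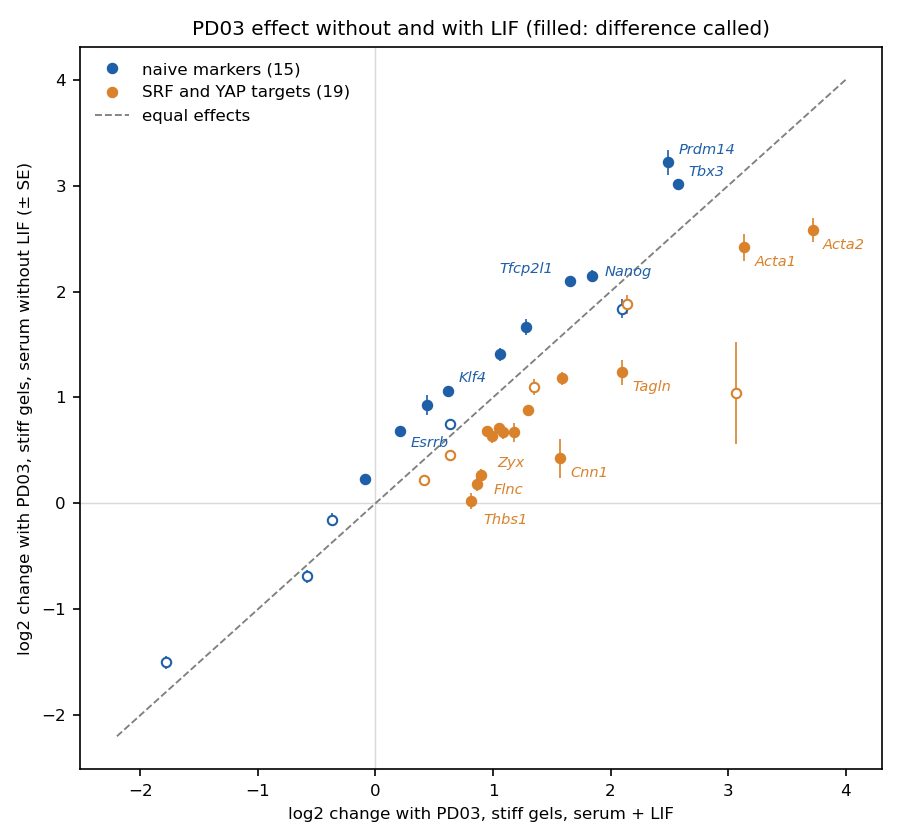
Log2 change with PD03 on stiff gels in serum + LIF (x axis) against that without LIF (y axis), with bars of 1 SE on the y axis, for the 15 naive markers (blue) and the 19 tested SRF and YAP targets (orange). Filled points passed the test of the difference between the effects, and the dashed line marks equal effects. The 10 called naive markers lie above the line and the 14 called SRF and YAP targets below it.

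Of the genes with the largest differences at 5 CPM or more, Trh, thyrotropin-releasing hormone, fell from 81.1 to 6.67 CPM without LIF, a smaller fall than with LIF (difference 1.13 ± 0.19). Fgf10, Ttll6 and Xaf1 rose more without LIF, with differences of 1.07 ± 0.26, 0.96 ± 0.23 and 0.89 ± 0.18. Map3k6 and St6galnac2 were not called for the effect without LIF, and differed by 0.94 ± 0.22 and 0.90 ± 0.22 from the effect with it. In the other direction, Epha1 and Sema6a fell more without LIF, with differences of -1.14 ± 0.29 and -1.02 ± 0.14, and Cnn1, Cdcp1 and Pmp22 had lower log2 changes without LIF, with differences of -1.14 ± 0.27, -0.998 ± 0.23 and -0.98 ± 0.18. Ccnd2 fell less without LIF than with it (0.89 ± 0.14), and Pou3f1 fell more (-0.84 ± 0.17). The call was lost in 8 of 12 fits that left out 1 library for Epha1, 7 of 12 for Fgf10, 7 of 12 for Ttll6, 6 of 12 for Map3k6 and 6 of 12 for St6galnac2, with adjusted p of at most 0.16, 0.15, 0.14, 0.068 and 0.11 (edgeR). It was lost without serum + PD03 library 2 for Cdcp1 (adjusted p 0.079), without serum + LIF library 2 for Cnn1 (adjusted p 0.066) and without serum + LIF + PD03 library 2 for Pou3f1 (adjusted p 0.082).

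The same effect was compared with that on soft gels without LIF (3 libraries in serum and 6 in serum + PD03). Substrate and sequencing pool coincided except for 2 of the 6 soft libraries with PD03, which cannot be assigned to columns, so for these differences the substrate and the pool cannot be told apart. On soft gels 10177 genes were called. Of the genes called on stiff gels 85.6% were called on soft gels in the same direction, and 83.2% of those called on soft gels were called on stiff ones in the same direction, with 9 in opposite directions. The difference was called for 141 genes (0.797%), 69 with a higher and 72 with a lower log2 change on stiff gels, and 6 differed by at least 2-fold. The count was 49 without soft serum library 2, 68 without serum + PD03 library 1 or 3, 85 without serum + PD03 library 2 or soft serum library 3, 90 without soft serum library 1 and 91 without serum library 2. It was 311 with DESeq2 and 222 with no filter on low counts. This test and that of LIF share the 6 stiff libraries without LIF, so their calls are not independent.

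Of the 15 naive markers, 6 were called, all with the higher log2 change on stiff gels. Tbx3 stood at 70.6 ± 4.15 CPM in serum and 569.8 ± 12.7 CPM in serum + PD03 on stiff gels and at 97.0 ± 3.57 CPM in soft serum and 603 ± 21.5 CPM in soft serum + PD03, a difference of 0.38 ± 0.06 (adjusted p = 4.1e-04). Prdm14 and Tfcp2l1 differed by 0.73 ± 0.16 and 0.27 ± 0.07. The count of called naive markers was 3 without serum library 1 or soft serum library 2 and 4 to 6 in the other fits that left out 1 library. The call of Tfcp2l1 was lost in 9 of 15 such fits (adjusted p up to 0.16, edgeR) and that of Prdm14 without serum library 1 (adjusted p 0.098). Of the 17 glycolysis genes, 6 were called, all with the lower log2 change on stiff gels, and Slc16a3 and Ldha differed by -0.64 ± 0.11 and -0.27 ± 0.06. The count of glycolysis genes was 1 without serum library 2 or soft serum library 2, and 2 without serum + PD03 library 1 or 3. It was 4 without soft serum library 1 and 5 to 6 in the other such fits. The call of Ldha was lost without serum + PD03 library 1, serum + PD03 library 3, serum library 2, soft serum library 1 or soft serum library 2 (adjusted p up to 0.2, edgeR). Of the 19 SRF and YAP targets, 0 were called by edgeR and 0 by DESeq2, with 4 at an unadjusted p below 0.05 in edgeR. Fabp3 rose more on stiff gels (0.69 ± 0.08), and of the ERK feedback inhibitors Spry2 was called, falling by more (-0.42 ± 0.09), a call that was lost without serum + PD03 library 2, serum + PD03 library 3 or soft serum library 2 (adjusted p up to 0.084).

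Among all genes of at least 5 CPM, Hhip, an inhibitor of hedgehog ligands, rose more on stiff gels, from 3.09 to 44.1 CPM, against 6.81 ± 0.762 CPM in soft serum and 43.6 ± 2.07 CPM in soft serum + PD03, a difference of 1.17 ± 0.20. Nexn, which binds actin, was not called for the effect on stiff gels and differed by 0.99 ± 0.20. Sgms2, Ttll6, Ccnd2 and 1810026B05Rik differed upward as well, by 0.95 ± 0.19, 0.88 ± 0.22, 0.85 ± 0.13 and 0.79 ± 0.19. Of the metallothioneins, Mt1 stood at 267 ± 23.4 CPM in serum and 167 ± 6.77 CPM in serum + PD03 on stiff gels and at 191 ± 8.43 CPM in soft serum and 199.6 ± 9.76 CPM in soft serum + PD03, a difference of -0.75 ± 0.09. Mt2 stood at 269 ± 25.1 CPM in serum and 204 ± 11.8 CPM in serum + PD03 on stiff gels and at 185 ± 18.05 CPM in soft serum and 236 ± 6.34 CPM in soft serum + PD03, a difference of -0.75 ± 0.09. Elovl4, B4galnt1 and Pou3f1 had lower log2 changes on stiff gels, with differences of -0.76 ± 0.19, -0.75 ± 0.18 and -0.73 ± 0.16. In the groups without PD03, the level of Pou3f1 was 81.1 ± 4.33 CPM on stiff and 48.6 ± 3.66 CPM on soft gels, and with PD03 it was 4.92 and 4.97 CPM. The call was lost in 9 of 15 fits that left out 1 library for B4galnt1, 7 of 15 for Elovl4, 7 of 15 for Ttll6 and 5 of 15 for 1810026B05Rik, with adjusted p of at most 0.15, 0.15, 0.19 and 0.13 (edgeR), and for Pou3f1 without serum + PD03 library 1, serum + PD03 library 3 or soft serum library 2 (adjusted p up to 0.06).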

How the data were processed

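RNA was extracted from cell lysates (RNeasy, with removal of genomic DNA), libraries were made with a NuGen kit per the labels and sequenced on an Illumina HiSeq4000. The authors deposited raw counts of reads per gene, made by alignment to GRCm38/mm10 with STAR 2.5.2a and counting with htseq-count on Ensembl annotation, and the submitters' processing notes also name DESeq. The strand setting is not given in the sources used here, so overlapping and antisense genes cannot be told apart by strand. Columns were assigned to groups by their headings, which carry no replicate number, and library numbers only name columns. No file but the count table was needed, and 0 columns belonged to other samples.

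Counts of 36 libraries in 11 groups were fitted together with edgeR 4.0.16 (limma 3.58.1, R 4.3.3) after filterByExpr by group and TMM scaling, 1 coefficient per group, glmQLFit and glmQLFTest. Calls were made at a Benjamini-Hochberg adjusted p below 0.05 over all tested genes, and CPM values use the TMM-scaled library sizes. On simulated counts with known changes the fit missed part of the changed genes, more of them at small folds, so a gene that was not called may still differ. There 130 of 17460 genes were called, far fewer than in the data, so the share missed does not carry over to the data. Differences of effects were contrasts of the same model, so their error comes from the spread over all groups, and p-values measure the spread between these libraries. Alternatives were DESeq2 1.42.0 (its Wald test and its size factors), upper-quartile scaling, no filter or at least 1 CPM in 3 libraries, the compared libraries alone, each library left out, and a test against a change of 2-fold.

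The members and lists were chosen with earlier results of these data known. Named genes were list members, the 10 largest changes per direction among called genes of at least 5 CPM without overlap between groups, the 5 largest changes in share of counts per direction, and the 6 largest differences of effects per direction, with the ERK readouts Spry4, Dusp6, Egr1, Etv4 and Etv5 first. Some members that the rule names are not reported here. Lists were described by counts and medians, with no set test. Gene positions and promoter windows were taken from the GRCm38 annotation and the RefSeq table of GRCm38.p6.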

Additional observations from a re-analysis of the deposited data

Results flagged for a closer look

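The effect of PD03 on stiff gels with and without LIF was compared by a test of the difference itself. It was edgeR's quasi-likelihood test, at an adjusted p below 0.05 over 17702 genes. The values below are for 27 genes that passed it and were singled out above for this comparison. Other genes named in this report, such as Klf2, Fbxo15, Tcl1 and Col1a1, passed it too and are not among the 27. On the log2 scale, the change without LIF minus that with LIF was 0.48 for Esrrb, 0.44 for Tfcp2l1, 0.44 for Klf4, 0.44 for Tbx3, 0.31 for Nanog, 0.73 for Prdm14 and 0.31 for Zfp42, all naive markers. It was -1.14 for Acta2, -0.86 for Tagln, -1.14 for Cnn1, -0.68 for Flnc, -0.79 for Thbs1 and -0.63 for Zyx among the SRF and YAP targets, and -0.59 for Krt8 and -0.59 for Krt18. Among the other genes it was 1.13 for Trh, 1.07 for Fgf10, 0.96 for Ttll6, 0.89 for Xaf1, 0.94 for Map3k6, 0.90 for St6galnac2 and 0.89 for Ccnd2, and -1.14 for Epha1, -1.02 for Sema6a, -0.998 for Cdcp1, -0.98 for Pmp22 and -0.84 for Pou3f1. Of the 27, 11 lost the call in at least 1 of the 12 fits that left out 1 library, namely Nanog in 11 fits, Zfp42 in 9, Epha1 in 8, Fgf10 and Ttll6 in 7, Map3k6 and St6galnac2 in 6, Prdm14 in 2, and Cdcp1, Cnn1 and Pou3f1 in 1.

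The effect without LIF was compared between stiff and soft gels by the same kind of test. The values below are for 18 genes that passed it and were singled out above for that comparison. Other genes named in this report, such as Pim2, passed it too and are not among the 18. The change on stiff minus that on soft gels was 0.38 for Tbx3, 0.73 for Prdm14, 0.27 for Tfcp2l1, 0.69 for Fabp3, 1.17 for Hhip, 0.99 for Nexn, 0.95 for Sgms2, 0.88 for Ttll6, 0.85 for Ccnd2 and 0.79 for 1810026B05Rik. It was -0.64 for Slc16a3, -0.27 for Ldha, -0.42 for Spry2, -0.75 for Mt1, -0.75 for Mt2, -0.76 for Elovl4, -0.75 for B4galnt1 and -0.73 for Pou3f1. In these values the substrate and the sequencing pool cannot be told apart. Of the 18, 9 lost the call in at least 1 of the 15 fits that left out 1 library, namely Tfcp2l1 and B4galnt1 in 9 fits, Elovl4 and Ttll6 in 7, Ldha and 1810026B05Rik in 5, Pou3f1 and Spry2 in 3, and Prdm14 in 1.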

How the results depend on the processing

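The count of genes changed by PD03 was 9496 to 9962 with other scalings, filters, DESeq2 or the 6 libraries alone, and 9225 to 9411 without 1 library. Of the 9885 genes, at least 8878 were called in each of these fits too. Tested against a change of 2-fold, 1839 genes were called. The count for the difference by LIF was 290 with DESeq2 and 92 to 187 without 1 library, and that for the difference by substrate 311 with DESeq2, 222 with no filter on low counts and 49 to 137 without 1 library, and the cause was not tested. Of 288 results for named genes, 248 kept their direction and side of the threshold in every alternative. Over 3777 values, 133 lost a call, 18 gained one and 14 changed sign, the last only for genes with no call. These were 0.0022 for Mael with at least 1 CPM in 3 libraries and -0.0084 for Thbs1 with upper-quartile scaling, and, without 1 library, the ranges -0.0663 to 0.0840 for Mael, -0.18 to 0.0461 for Map3k6, -0.13 to 0.0774 for Nexn, -0.27 to 0.27 for Pdgfra, -0.36 to 0.19 for Sox17, -0.0923 to 0.0190 for Tet3 and -0.0112 to 0.0516 for Thbs1. Other scalings moved the median log2 change of all genes by at most 0.03 in size. No paired analysis was possible because the columns carry group names without replicate numbers. With 1 library left out of 3, the spread was still estimated over all groups. At low levels, such as those of Fgf5, Elf5 or Dusp2, depth limits the precision.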

Other observations

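Gene families, chosen after their values were seen, are given here as values, some of their members (among the Prame-like genes, keratins and collagens) being in the lists above and counted again here, with the 28.4% of all tested genes that rose and 27.4% that fell as background and 0.01 as the median log2 change of all genes. Rhox genes, homeobox genes in a cluster on the X chromosome, rose in 4 of 7 cases and the other 3 were not called (median log2 change 0.54). Rhox6 stood at 6.47, 3.33 and 5.08 CPM in serum and 94.4, 88.5 and 85.2 CPM in serum + PD03, and Rhox9 at 4.75, 4.51 and 5.14 CPM in serum and 91.2, 83.4 and 82.7 CPM in serum + PD03, whereas Rhox5, the most abundant of them, rose by 0.40 ± 0.06. Of 20 tested Hox genes, 11 rose and 1 fell, all at low levels, with Hoxc13 at 1.495, 0.901 and 1.69 CPM in serum and 8.33, 10.4 and 10.9 CPM in serum + PD03 and Hoxc12 at 0, 0.416 and 0.0677 CPM in serum and 3.65, 3.72 and 3.79 CPM in serum + PD03. Of 8 Prame-like genes, 7 rose, and Pramef12 stood at 29.9, 32.03 and 27.7 CPM in serum and 119, 116 and 120.4 CPM in serum + PD03. Members of these families resemble each other, so that reads may be split between them. Of 37 genes with a symbol of the collagen form, 19 rose and 10 fell (median log2 change 0.85). Col4a3bp, which was not called, is among the 37 by its symbol but is not a collagen gene. Of 15 keratins 7 rose and 2 fell.

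Of 39 proteasome genes, 17 fell and 3 rose (median log2 change -0.07), and the 3 that fell at least 2-fold were the subunits of the immunoproteasome, the form that cells make under interferon. Psmb8 stood at 1.495, 1.04 and 1.62 CPM in serum and 0.128, 0.0818 and 0 CPM in serum + PD03, Psmb9 at 0.635, 1.11 and 0.542 CPM in serum and 0.0641, 0.164 and 0.321 CPM in serum + PD03 and Psmb10 at 24.6, 26.8 and 23.2 CPM in serum and 5.25, 6.10 and 6.94 CPM in serum + PD03. Of 81 ribosomal protein genes, 48 fell and 2 rose, none by 2-fold (median log2 change -0.16). Of 60 clustered histone genes, 34 fell and 2 rose (median log2 change -0.45), most of whose transcripts have no poly(A) tail. Of 91 genes of oxidative phosphorylation, 21 rose and 23 fell, and of the 13 mitochondrially encoded genes mt-Co1 rose and the other 12 were not called. Of 9 Ly6 genes, 5 rose and 1 fell.

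Single genes were also chosen after their values were seen. Igf2, an imprinted growth factor gene, stood at 132, 147 and 139 CPM in serum and 960.3, 847 and 826 CPM in serum + PD03, a log2 change of 2.66 ± 0.10. Calcoco2, an autophagy receptor, rose by 4.26 ± 0.09, A2m, a protease inhibitor of the blood, by 4.52 ± 0.12, and Hesx1, a homeobox repressor of the anterior neural plate and of pluripotent cells, by 4.38 ± 0.15.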
